A study of Ovis aries with 13 samples.

Results

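The transcripts described here belong to 4 genes of the cell cycle, PCNA, CCNB1 (cyclin B1), CDKN1B (p27) and CDKN1C (p57), in the left ventricle of newborn and fetal sheep. Probes were taken if the array's own gene name, or the gene to which the RefSeq accessions in the files lead, was that of a member. Of 15008 probes on the array, 5 met this rule: 2 for PCNA, 2 for CDKN1B and 1 for CDKN1C. The rule found 0 probes for CCNB1. A single further probe, with no gene name, carries a description of partial similarity to bovine G2/mitotic-specific cyclin-B1. It is outside the rule and was called the cyclin-B1 probe because of that description only, so its values hold for CCNB1 only as far as the description is right.

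The newborn group held 7 samples from lambs at postnatal day 1, 4 females and 3 males, and the fetal group held 6 samples from fetuses at gestational day 142, 2 females and 4 males. The design text calls the newborns lambs on their day of birth and counts 7 fetuses, and names other heart regions and other assays that were not analysed here. For neither group do the labels name a treatment or a breed. Each sample gave 1 Agilent single-colour array, and 9 of the 13 arrays share 4 animal numbers under different letters, with no note of what a shared number means.

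Cells divide by passing through DNA synthesis and mitosis under the control of cyclin-dependent kinases. PCNA is the sliding clamp that holds DNA polymerase on its template during DNA synthesis. Cyclin B1 binds and activates the kinase CDK1 for entry into mitosis. CDKN1B and CDKN1C belong to the Cip/Kip family of inhibitors, which bind cyclin and kinase complexes and hold cells out of the cycle, and CDKN1C is an imprinted gene in humans and mice. Heart muscle cells of mammals lose most of their ability to divide around birth, while other cells of the heart go on dividing.

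The probe sequences are shown because they decide how far values of the same gene are separate measurements. The PCNA probes overlap by 30 of 60 bases, in capitals.
PCNA, brighter probe: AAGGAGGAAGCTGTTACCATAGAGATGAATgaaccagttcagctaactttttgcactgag
PCNA, dimmer probe: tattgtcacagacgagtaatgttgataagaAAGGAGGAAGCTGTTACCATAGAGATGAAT
The CDKN1B probes overlap by 59 of 60 bases, with a shift of 1 base, and of each only the first 30 bases are printed, with the shared bases in capitals.
CDKN1B, brighter probe: cACTGAACAGCAACAGACTTAACACTAAAG
CDKN1B, dimmer probe: ACTGAACAGCAACAGACTTAACACTAAAGT
The CDKN1C probe and the first 30 bases of the cyclin-B1 probe are given in lower case.
CDKN1C: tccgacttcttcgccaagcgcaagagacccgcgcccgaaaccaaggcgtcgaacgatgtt
cyclin-B1: gtgtaacttgtgaactttggaatactatct
The CDKN1C probe was 60% G and C, against 36.67% to 41.67% for the other probes of the set. The CDKN1B probes are therefore almost the same measurement made at different spots, whereas the PCNA probes each hold 30 bases that the other lacks.

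Values are log2 of the processed signal minus the log2 of the array's own 75th percentile over its non-control spots, so that 0 is the 75th percentile and 1 is a doubling over it. That percentile lay between 219 and 349 intensity units on the newborn arrays and between 241 and 367 on the fetal arrays, and 62.7% to 71.4% of the probes were well above background on each array. Of the 15008 probes, 10255 were well above background on at least 6 arrays and were tested with limma, and the 6 probes of the members were among them. No member spot was saturated. Of all tested probes 23.1% differed between newborn and fetal arrays at an adjusted p under 0.05, 12.0% higher in newborns and 11.1% lower. Since the relation between samples that share a number is unknown, p-values measure only the spread between these samples, part of which may be technical.

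Array newborn 6, from a male on slide 2, stood apart from its group. Its mean correlation over the probes was 0.970 with the other newborn arrays and 0.977 with the fetal arrays, while each of the other 12 arrays correlated better with its own group. Values are therefore given with and without this array. Because it was picked in these same data for its likeness to the fetal arrays, leaving it out favours a wider separation of the groups. The p-values, calls and separations without newborn 6 are thus descriptive and are no separate support for a difference. Without it, 30.4% of the probes differed between the groups, 15.6% higher and 14.8% lower in newborns.

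The labelled tissue could be checked on few markers. Of 16 heart muscle genes only myoglobin (MB) had a probe under its name, and its level was 8.02 to 9.12 on newborn arrays and 8.74 to 9.20 on fetal arrays. Some genes listed for other cell types also differed between the groups, beside 12.0% of all tested probes higher in newborns and 11.1% lower. Higher in newborns were 3 of 4 macrophage and monocyte genes tested, of 8 listed (mean level -2.85 to -1.48 in newborns, -3.80 to -2.85 in fetuses), and the smooth muscle gene CNN1, the only tested gene of 5 listed (3.29 to 6.39 in newborns, 1.86 to 2.84 in fetuses). The macrophage and monocyte level rests partly on dim spots: FCGR1A was well above background on 7 newborn and 2 fetal arrays, and LYZ, which did not pass, on 3 arrays of each group. Lower in newborns were 2 of 3 endothelial genes tested of 8 listed (-0.50 to 0.16 in newborns, -0.11 to 0.27 in fetuses). So was 1 of 3 fibroblast genes tested of 8 listed (1.36 to 2.24 in newborns, 1.97 to 2.26 in fetuses). This gene was COL3A1, with a difference of -0.37 on its brightest probe (limma adjusted p = 0.0469). A dimmer COL3A1 probe had -0.185 and did not pass (limma adjusted p = 0.374). Also lower were both lymphocyte genes tested of 9 listed (-5.57 to -4.00 in newborns, -3.40 to -1.88 in fetuses) and both erythroid genes tested of 7 listed (-1.04 to 0.66 in newborns, 0.21 to 2.86 in fetuses). These levels too rest partly on dim spots. CD3E was well above background on 5 newborn and 6 fetal arrays, and CD3D and AHSP each on 2 newborn and 5 fetal arrays. The erythroid level averages bright HBB (newborn mean 5.11) with dim AHSP (-5.55). So few genes were tested for each cell type that these counts do not show a change in the amount of any of them. The part of these cell types in the values of the cell cycle genes was not tested. In whole tissue, fewer cells of a type and less RNA per cell cannot be told apart.

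PCNA, the replication clamp, was higher in newborn than in fetal ventricle on both of its probes. On the brighter probe its level was 0.44 at the lowest, 1.48 at the median and 2.15 at the highest on the 7 newborn arrays, against -0.09, 0.31 and 0.57 on the 6 fetal arrays. With newborn 6 left aside the newborn arrays all lay above every fetal array, the nearest at 1.09, and newborn 6, at 0.44, lay inside the fetal range. Over the whole groups 3.38% of tested probes had every newborn array above every fetal array and 3.51% had every newborn array below, and none of the 6 probes described here was among them. In intensity units the same probe read 341 to 1139 on newborn arrays and 308 to 459 on fetal arrays.

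The newborn mean of the brighter probe was 1.44 ± 0.56 (SD, n = 7) and the fetal mean 0.28 ± 0.22 (SD, n = 6). The difference of 1.17 (SE 0.22, 95% interval 0.69 to 1.64) is 2.25-fold, with a limma adjusted p of 0.00295. This fit treats the arrays as independent. With the shared animal number as a random block the difference was 1.13 (SE 0.24), with a limma adjusted p of 0.00721. The dimmer probe lay between -0.91 and 0.67 on newborn arrays, with a median of 0.08, and between -1.22 and -0.88 on fetal arrays, with a median of -1.09. Here too 6 of 7 newborn arrays lay above every fetal array and newborn 6 lay among the fetal ones. Its difference of 1.13 (SE 0.19) is 2.18-fold, with a limma adjusted p of 0.00176.

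Without newborn 6 the PCNA difference was 1.33 (SE 0.17) on the brighter probe, or 2.52-fold, with a limma adjusted p of 0.000137, and 1.29 on the dimmer probe, with an adjusted p of 2.75e-05. The 6 newborn arrays then lay above every fetal array on both probes, as for 7.35% of all tested probes. The newborn arrays also spread more than the fetal arrays (SD 0.56 and 0.22), and still did so without newborn 6 (SD 0.37). With the local background of each spot in a normexp correction the difference was 0.95 on the brighter probe and the limma adjusted p 0.0616, in a setting that called 50 of the 10255 probes. The dimmer probe had 0.71 there, with an adjusted p of 0.0943, and 0.73 in the series matrix, with an adjusted p of 0.00186. Within slide 1 the difference was 1.39, and within slide 2, which holds newborn 6, it was 1.15, with a limma adjusted p of 0.166, or 1.40 without newborn 6, with an adjusted p of 0.0318.

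**Figure D1:**
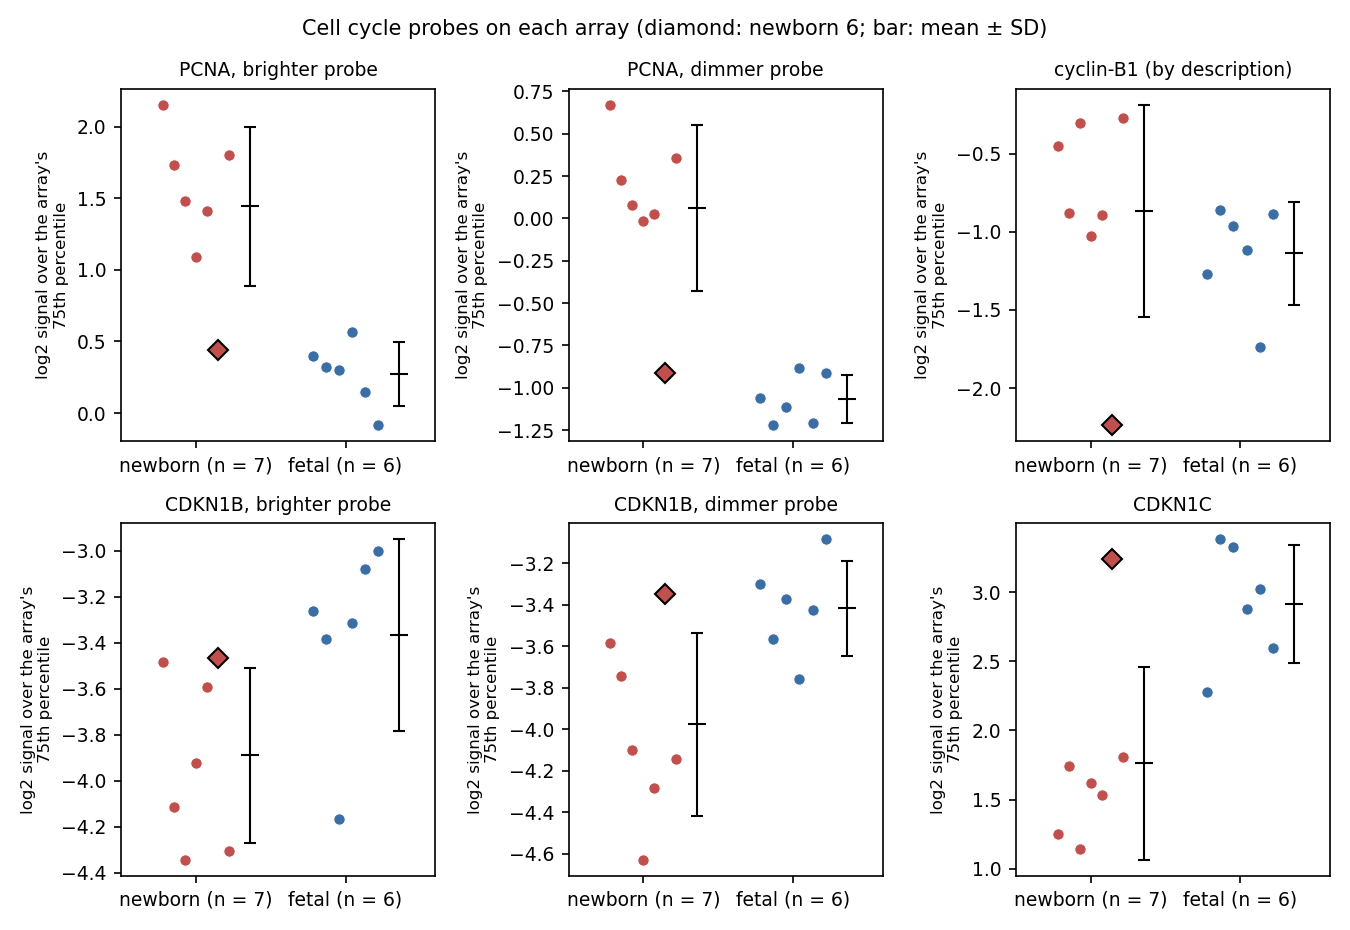
Level of each probe on every array, as log2 of the signal over the array's 75th percentile, with newborn arrays at the left of each panel and fetal arrays at the right; bars give the mean ± SD, the diamond is newborn 6, and the vertical axis differs between panels. On the brighter PCNA probe 6 newborn arrays lie at 1.09 or above and the fetal arrays at 0.57 or below, and on the CDKN1C probe 6 newborn arrays lie at 1.81 or below and the fetal arrays at 2.28 or above.

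The cyclin-B1 probe, whose name rests on its description, overlapped between the groups. Its level was -2.24 at the lowest, -0.88 at the median and -0.27 at the highest on newborn arrays, against -1.74, -1.04 and -0.86 on fetal arrays. Newborn arrays 1, 3 and 7 lay above every fetal array, newborn 6 lay below every fetal array, and the other newborn arrays lay among them.

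The newborn mean of the cyclin-B1 probe was -0.87 ± 0.68 (SD, n = 7) and the fetal mean -1.14 ± 0.33 (SD, n = 6). The difference of 0.27 (SE 0.27, 95% interval -0.31 to 0.85) did not pass, with a limma adjusted p of 0.488, and its interval spans a 0.81-fold to a 1.81-fold level in newborns. Without newborn 6 the probe was higher in newborns by 0.50 (SE 0.18), or 1.42-fold, with a limma adjusted p of 0.0466, so that this 1 array decided the call. The difference was 0.51 within slide 1 and 0.20 within slide 2, or 0.58 within slide 2 without newborn 6.

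CDKN1C, the p57 inhibitor, was lower in newborn than in fetal ventricle. Its level was 1.14 at the lowest, 1.62 at the median and 3.24 at the highest on newborn arrays, against 2.28, 2.95 and 3.38 on fetal arrays. The newborn arrays other than newborn 6 all lay below every fetal array, and newborn 6, at 3.24, lay inside the fetal range. In intensity units the probe read 610 to 2381 on newborn arrays and 1347 to 3833 on fetal arrays.

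The newborn mean of CDKN1C was 1.76 ± 0.70 (SD, n = 7) and the fetal mean 2.92 ± 0.43 (SD, n = 6). CDKN1C fell by 1.15 on the log2 scale in newborns (SE 0.29, 95% interval -1.78 to -0.53), so that the fetal level was 2.23-fold that of newborns, with a limma adjusted p of 0.0125. Without newborn 6 it fell by 1.40 (SE 0.19), the fetal level being 2.64-fold that of newborns, with a limma adjusted p of 0.000238. The 6 newborn arrays then lay below every fetal array, as for 6.68% of all tested probes. With the shared animal number as a random block the difference was -1.14 (SE 0.31), with a limma adjusted p of 0.0236. With normexp on the background of each spot the difference was -1.003 and the limma adjusted p 0.262. Within slide 1 it was -1.59, and within slide 2 it was -0.76, with a limma adjusted p of 0.402, or -1.16 without newborn 6, with an adjusted p of 0.03.

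CDKN1B, the p27 inhibitor, gave a dim signal, and its call depended on the probe. The brighter probe lay between -4.34 and -3.47 on newborn arrays, with a median of -3.92, and between -4.16 and -3.00 on fetal arrays, with a median of -3.29. In intensity units this was 14.4 to 23.0 on newborn arrays and 17.7 to 40.9 on fetal arrays. Both probes were well above background on all 6 fetal arrays and on 6 of the 7 newborn arrays, newborn 4 being the exception. The groups overlapped, with 2 newborn arrays below every fetal array and fetal 3, at -4.16, low among the fetal arrays.

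On the brighter CDKN1B probe the newborn mean was -3.89 ± 0.38 (SD, n = 7) and the fetal mean -3.37 ± 0.42 (SD, n = 6), a difference of -0.52 (SE 0.20, 95% interval -0.96 to -0.09) that did not pass, with a limma adjusted p of 0.0751. The dimmer probe lay between -4.63 and -3.35 on newborn arrays and between -3.76 and -3.08 on fetal arrays, with 4 newborn arrays below every fetal array. It fell by 0.56 in newborns (SE 0.19), with a limma adjusted p of 0.043, the fetal level being 1.47-fold that of newborns. That call was lost in 9 of the 13 fits that left out 1 array, in which the difference lay between -0.66 and -0.45 and the adjusted p between 0.00971 and 0.0906. The arrays whose absence ended the call were fetal 1, 2, 3, 5 and 6 and newborn 3, 4, 5 and 7. The dimmer probe also missed the threshold with slide as a block (-0.55, limma adjusted p = 0.0658), with sex as a covariate (-0.52, 0.075) and with the shared animal number as a random block (-0.52, 0.0918).

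The brighter CDKN1B probe passed where fetal 3 was left out, with a difference of -0.68 and a limma adjusted p of 0.0182, and where newborn 6 was left out, with -0.59 and 0.0417. The mean of both probes gave -0.54, with a limma adjusted p of 0.0286. With normexp on the array's median background and an offset of 50, which is above every CDKN1B intensity, the difference was -0.08 on either probe.

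The order of the age differences on the brightest probe of each gene was PCNA at 1.17, the cyclin-B1 probe at 0.27, CDKN1B at -0.52 and CDKN1C at -1.15. The 95% intervals of each pair of neighbours in this order overlapped. Each interval came from a separate fit to the same arrays, so the overlap does not decide whether neighbours differ. Differences between the genes were not tested.

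Both sexes were present in each group. In males PCNA averaged 1.22 in newborns and 0.35 in fetuses, a difference of 0.86, and in females 1.61 in newborns and 0.12 in fetuses, a difference of 1.49. In males CDKN1C averaged 2.04 in newborns and 2.88 in fetuses, a difference of -0.84, and in females 1.55 in newborns and 2.99 in fetuses, a difference of -1.44. Newborn 6 is 1 of the 3 newborn males. Without it the male difference was 1.25 for PCNA and -1.44 for CDKN1C.

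The male minus female difference of these age differences was -0.63 for PCNA (95% interval -1.62 to 0.36) and 0.60 for CDKN1C (95% interval -0.74 to 1.94), each with a limma adjusted p of 0.986. For the cyclin-B1 probe it was -0.08 and for the brighter CDKN1B probe 0.12, each with an adjusted p of 0.995. In limma 0 of 10255 probes passed this test (0.00%), with 507 at an unadjusted p under 0.05, and with 2 fetal females the intervals are wide.

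Co-variation of the genes was measured within each group, since the groups differed in level. Among the 7 newborn arrays PCNA and the cyclin-B1 probe had Pearson's r of 0.87 (exact permutation p = 0.0165, adjusted 0.132 over 16 relations) and Spearman's rho of 0.82 (exact permutation p = 0.0341, adjusted 0.273). Newborn 6 was the lowest newborn array for both probes. Without it, r was 0.57 over 6 arrays (exact permutation p = 0.229), and without the 2 arrays farthest from the PCNA median, newborn 6 and newborn 1, it was 0.56. Among the 6 fetal arrays r was -0.02 (exact permutation p = 0.979, adjusted 0.979) and rho -0.14 (exact permutation p = 0.803, adjusted 0.856).

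PCNA and CDKN1C moved in opposite directions between the groups, but within the groups their relation rested on newborn 6. Among newborn arrays r was -0.78 (exact permutation p = 0.0577, adjusted 0.231) and rho -0.32 (exact permutation p = 0.498, adjusted 0.694). Without newborn 6, r was -0.14 (exact permutation p = 0.781), and without newborn 6 and newborn 1 it was 0.35. Among fetal arrays r was 0.10 and rho -0.09 (exact permutation p = 0.872 and 0.919, adjusted 0.979 and 0.919), and r was -0.41 without fetal 6 and fetal 4.

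The cyclin-B1 probe and CDKN1C had r of -0.90 among newborn arrays (exact permutation p = 0.03, adjusted 0.16) and rho of -0.36 (exact permutation p = 0.444, adjusted 0.694). Without newborn 6 alone r was -0.38 (exact permutation p = 0.418), and without newborn 6 and newborn 7, the arrays farthest from the cyclin-B1 median, it was -0.93 over the 5 arrays left. No relation between different genes passed after adjustment over the 16 relations, in either group. The remaining pairs, those with CDKN1B and the fetal pair of cyclin-B1 and CDKN1C, had r between -0.59 and 0.39, with exact permutation p-values of 0.139 or above, and rho between -0.71 and 0.43, with exact permutation p-values of 0.0881 or above.

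The probes of a gene were also compared with each other. The PCNA probes had r of 0.98 and rho of 1 among newborn arrays (exact permutation p = 0.000198 and 0.000397, adjusted 0.00317 and 0.00635), with r of 0.95 without newborn 6 and 0.92 without newborn 6 and newborn 1. Among fetal arrays, where PCNA spanned a narrow range, their r was 0.04 and rho 0.26 (exact permutation p = 0.928 and 0.658, adjusted 0.979 and 0.752). The CDKN1B probes, which share 59 of 60 bases, had r of 0.43 among newborn arrays and 0.17 among fetal arrays (exact permutation p = 0.325 and 0.693, adjusted 0.742 and 0.896).

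**Figure D2:**
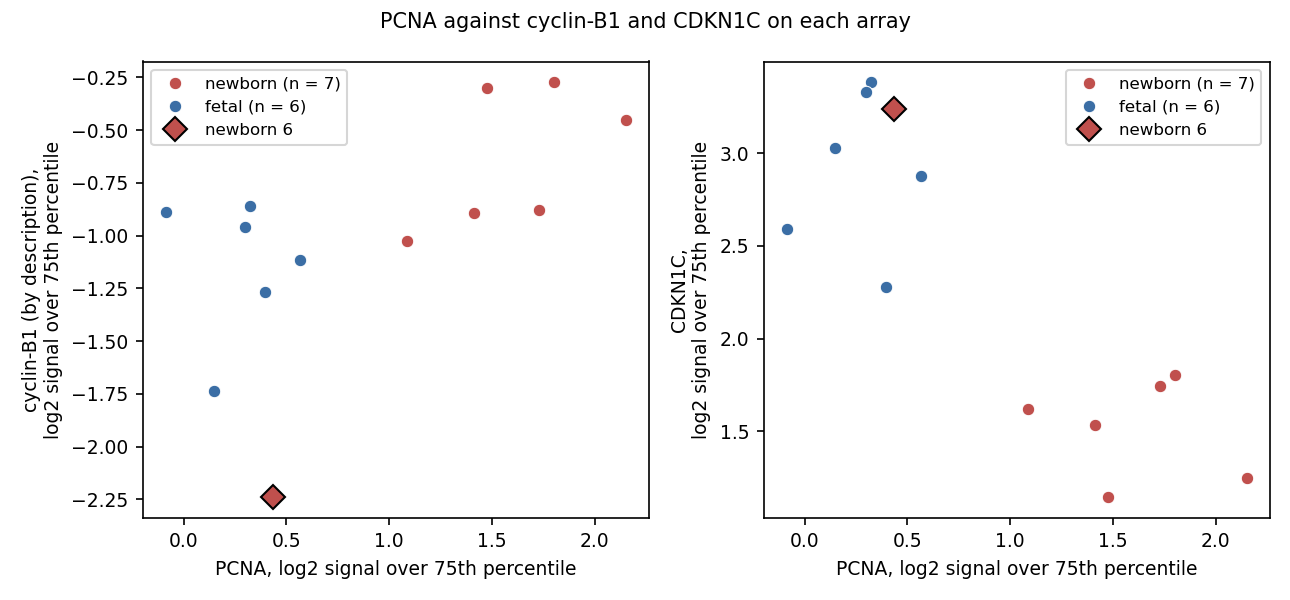
Level of the cyclin-B1 probe (left) and of CDKN1C (right) against that of the brighter PCNA probe, each as log2 of the signal over the array's 75th percentile, with a point for each newborn and fetal array. In the right panel 6 newborn arrays lie at high PCNA and low CDKN1C, and newborn 6, the diamond at 0.44 and 3.24, lies among the fetal arrays.

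Likeness was described over 531 named genes, as the correlation over the 13 arrays of each gene's deviations from its group means, with no test. The genes most like PCNA were CCNA2 (cyclin A2, of DNA synthesis and mitosis; r 0.88), TYMS (thymidylate synthase, which makes a DNA precursor; 0.85) and LMNB1 (lamin B1, of the nuclear envelope; 0.84). Without newborn 6 their r was 0.73, 0.66 and 0.65. TYMS was higher in newborns by 1.34 (limma adjusted p = 0.0143) and LMNB1 by 0.87 (0.0149).

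The genes most like the cyclin-B1 probe were CCNA2 (r 0.89), TYMS (0.88) and CFL1 (cofilin, which severs actin filaments; 0.87), and without newborn 6 their r was 0.66, 0.66 and 0.74. The genes most like CDKN1C were PRND (0.83), PSAP (prosaposin, a lysosomal protein precursor; 0.79) and DCN (decorin, a matrix proteoglycan and fibroblast marker; 0.77), with r of 0.62, 0.80 and 0.61 without newborn 6. Those most like the brighter CDKN1B probe were ITGAV (an integrin subunit; 0.79), PPARG (a nuclear receptor; 0.78) and SPA17 (0.74). Without newborn 6 their r was 0.76, 0.75 and 0.70. That probe is dim, and its r with the other CDKN1B probe was only 0.43 among newborn and 0.17 among fetal arrays. These values therefore describe the probe and cannot be taken as likeness to the gene. The arrays share their depth and scaling, newborn 6 was not well above background for CCNA2, and newborn 6 holds large deviations for PCNA, cyclin-B1 and CDKN1C, so that these correlations are not independent of it.

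The genes named from lists of DNA replication, cyclins and kinases, mitosis, inhibitors and checkpoint numbered 134, of which 14 had a tested probe under their name or, for CCNB1, its description. Over all 13 arrays 3 of the 14 were higher in newborns, PCNA, CDK2 and AURKA, and 2 were lower, CCND3 and CDKN1C, beside 23.1% of all tested probes. Their median difference was 0.31, against 0.03 over all tested probes and 0.10 over 547 named genes. Without the 4 genes, 2 of 10 were higher and 1 lower, with a median of 0.34.

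Among kinases and their partners, CDK2, the kinase of DNA synthesis, lay between -0.84 and 0.16 on newborn arrays and between -1.13 and -0.47 on fetal arrays. It was higher in newborns by 0.53 (SE 0.16, limma adjusted p = 0.0263), with newborn 6 again the lowest newborn array. CDK1, the mitotic kinase that cyclin B1 activates, lay between -3.33 and -0.81 on newborn arrays and between -3.73 and -2.44 on fetal arrays, and its difference of 0.94 (SE 0.33) had a limma adjusted p of 0.0515. AURKA, the Aurora A kinase of the mitotic spindle, was well above background on 6 newborn and 4 fetal arrays, and was higher in newborns by 0.64 (SE 0.18, limma adjusted p = 0.0221).

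Of the D cyclins, which act with CDK4 early in the cycle, CCND3 passed and CCND2 did not. CCND3 was lower in newborns, at -1.004 to -0.43 against -0.56 to -0.15 on fetal arrays, a fall by 0.39 (SE 0.10, limma adjusted p = 0.015). CCND2 lay at 3.90 to 6.09 on newborn arrays and 3.70 to 4.76 on fetal arrays, with a difference of 0.55 and an adjusted p of 0.201. CDK4 had a difference of 0.24 and an adjusted p of 0.111.

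The other genes tested did not pass over the 13 arrays. RPA1, which coats single-stranded DNA in replication, differed by 0.28 (limma adjusted p = 0.0752). CCNA2 differed by 0.35 (adjusted p = 0.646), with newborn 6 at -6.05, not well above background, and the other newborn arrays between -3.44 and -1.74, against -4.07 to -3.05 on fetal arrays. MYC, a factor that drives growth, differed by -0.26 (adjusted p = 0.38).

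Without newborn 6, which was picked for its likeness to the fetal arrays, 10 of the 14 genes passed, beside 30.4% of all tested probes. Of these 10, 7 were higher and 3 lower in newborns. The median difference of the 14 genes was 0.45, against 0.02 over all tested probes. Those higher were PCNA, RPA1 (0.32, limma adjusted p = 0.0432), CCNA2 (0.83, 0.0258), the cyclin-B1 probe, CDK1 (1.17, 0.00442), CDK2 (0.63, 0.00289) and AURKA (0.73, 0.006). Those lower were CCND3 (-0.38, 0.0154), CDKN1B and CDKN1C. CCND2, CDK4 and MYC did not pass there either, with adjusted p of 0.234, 0.0789 and 0.556.

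**Figure D3:**
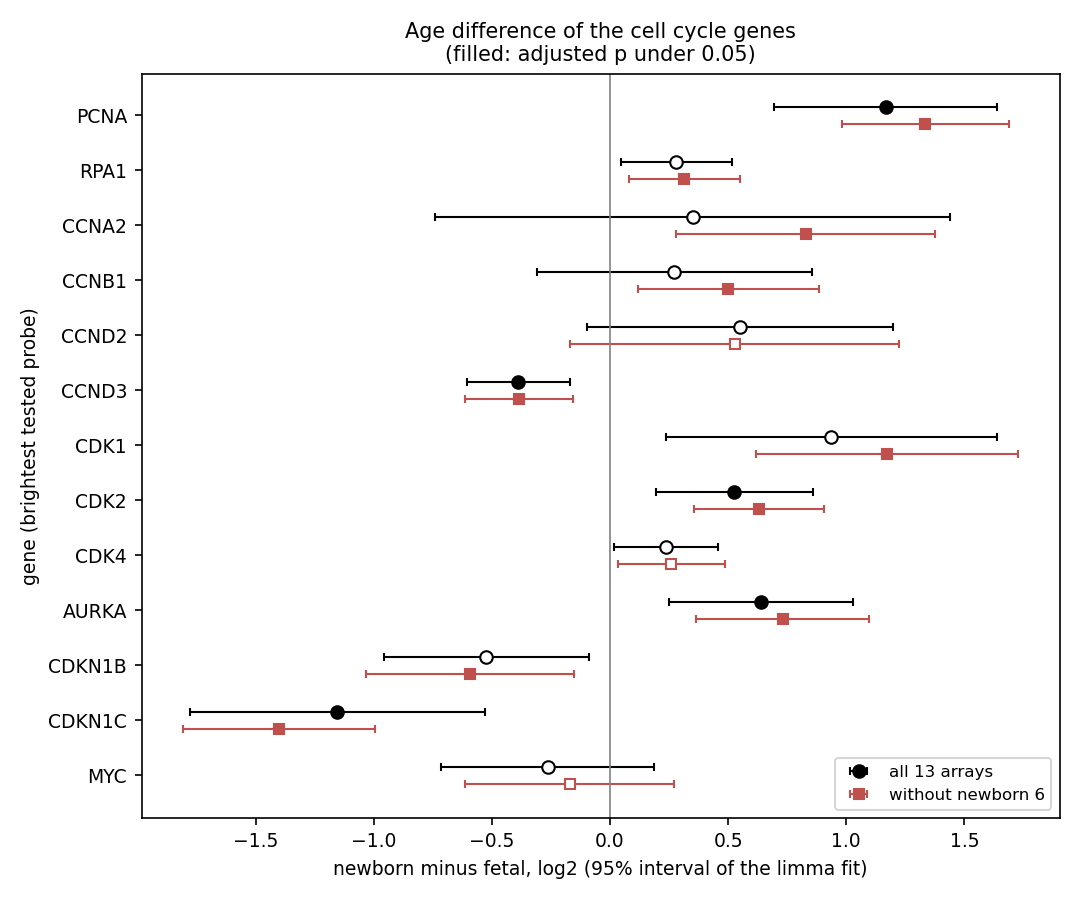
Newborn minus fetal difference of 13 of the 14 genes, on the log2 scale, with 95% intervals of the limma fit, over all 13 arrays (circles) and without newborn 6 (squares); filled symbols have an adjusted p under 0.05. Over all arrays 5 symbols are filled, with PCNA at 1.17 and CDKN1C at -1.15 at the ends, and without newborn 6 there are 10.

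Newborn 6 lay inside the fetal range for 10 of the 14 genes, below it for CCNA2, the cyclin-B1 probe and CCND3, and above it for CCND2. It was the lowest newborn array for 9 of the 14. Among the marker levels it lay within the range of the other newborn arrays for endothelium (-0.24), fibroblasts (2.20), smooth muscle (3.40), macrophages and monocytes (-2.35), lymphocytes (-4.13) and erythroid cells (-0.79), and its heart muscle marker MB, at 9.12, was the highest newborn value. Its 75th percentile of 252 intensity units and its 67.4% of probes well above background lay within the range of the other newborn arrays. The labels name nothing that sets this array apart.

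**Figure D4:**
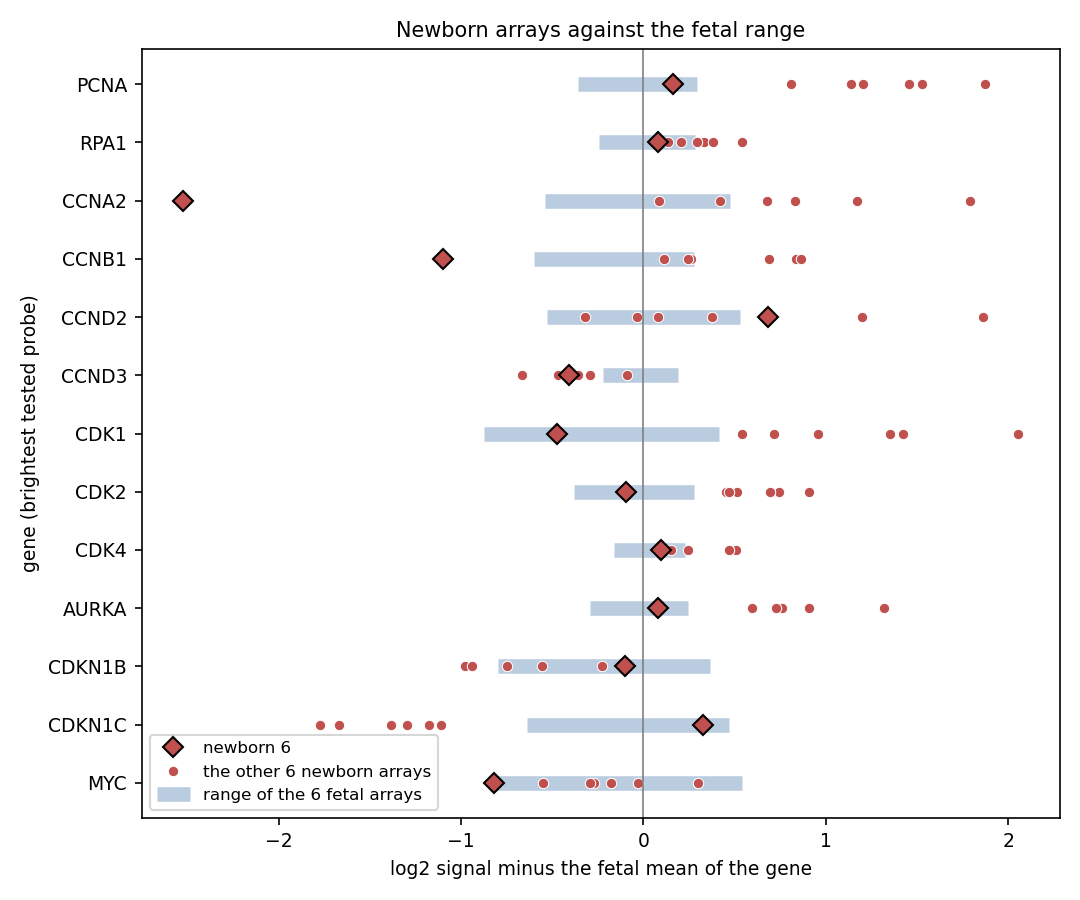
Each newborn array's level minus the fetal mean of the gene, on the log2 scale, for 13 of the 14 genes, with newborn 6 as a diamond, the other newborn arrays as points and the range of the 6 fetal arrays as a bar. For PCNA the other newborn arrays lie right of the fetal bar and for CDKN1C left of it, and the diamond lies within the bar for both.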

How the data were processed

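Transcripts of the left ventricle were measured on Agilent arrays in 7 newborn and 6 fetal samples of sheep. Per the file headers, each deposited file gives the intensity of every spot as read by Feature Extraction 10.1.1.1, both raw and after background correction within the array (the processed signal). The labels' protocols name Cy3 and the label field Cy5, and the files hold a single green channel. A series matrix that the authors deposited lists 7041 probes on what its values show to be a log2 scale, with its scaling not stated. It has 4 of the 6 probes described here and was used as an alternative.

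The value was log2 of the processed signal minus the array's 75th percentile. Control spots were left out, as were 224 spot values with an outlier mark over the 13 arrays, and spots of a probe were averaged. Groups were compared with limma 3.58.1 in R 4.3.3 (lmFit, eBayes, two-sided), with Benjamini-Hochberg adjustment over 10255 probes and a threshold of 0.05. A gene is given by its brightest tested probe, with every other probe of a member beside it. Of 15008 probes, 1370 had a single gene symbol through the names and accessions in the files, 14 had several and 13624 none.

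Named were every probe of the members, every tested gene of the cell cycle lists, and for each member the 3 genes most like it, and 1 tested gene of the lists, included in the counts, is not reported here. The members and lists were chosen with earlier results of these data known. The slide number, 1 or 2, came from the deposited files. Newborn arrays were 3 on slide 1 and 4 on slide 2, and fetal arrays 4 and 2. Alternatives were background correction by normexp, normalization, filters, slide, sex, replicate and animal number, eBayes with trend and robust, and each array left out. The settings without newborn 6 within slide 2, by sex and in the co-variation were chosen after seeing the data. Leaving out each array in turn was planned, but giving values without newborn 6 throughout was also decided after seeing the data. The number of arrays limits the precision. No 2 arrays were identical. The fit was tested on simulated arrays drawn independently of each other, with no slides, shared animal numbers or deviant array. That test therefore does not cover these features of the data. The figures used matplotlib 3.10.9 and numpy 2.4.6 with pandas 2.3.3 under Python 3.11.15.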

Additional observations from a re-analysis of the deposited data

Results flagged for a closer look

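Among 32 groups of arrays tested for a single array far from the others, 5 held one, and chance gives about 1 in 20. Array newborn 6 was the far one in 3 of them. It was low for the cyclin-B1 probe, at -2.24, where the next newborn array lay at -1.02, and low for CCNA2, at -6.05, where the next lay at -3.44, but there it was not well above background, so that its distance from the others has no exact size. It was high for CDKN1C, at 3.24, where the next newborn array lay at 1.81. Among fetal arrays, fetal 3 was low on the brighter CDKN1B probe, at -4.16, where the next lay at -3.38, and it was not low on the dimmer probe, at -3.37. Fetal 5 was low for CDK1, at -3.73, where the next fetal array lay at -2.81.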

How the results depend on the processing

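PCNA kept its direction in all 29 settings (0.95 to 1.40, the dimmer probe 0.71 to 1.40 in 27) and CDKN1C (-1.59 to -0.76), CDKN1B (-0.90 to -0.08) and the cyclin-B1 probe (0.15 to 0.58) in all 27, the arrays left out included. Normexp on the background of each spot ended the calls of PCNA (0.95) and CDKN1C (-1.003), called 50 of all probes and 0 of the 14 list genes (limma, 3 at an unadjusted p under 0.05). Within slide 2 PCNA (1.15) and CDKN1C (-0.76) did not pass. Calls over all probes numbered 356 within slide 1, 23 within slide 2 and 869 within slide 2 without newborn 6. With 1 array left out they numbered 1727 to 3116, the list genes called 4 to 10, and the differences were 1.05 to 1.33 for PCNA, 0.15 to 0.50 for cyclin-B1, -0.68 to -0.45 for CDKN1B and -1.40 to -1.05 for CDKN1C. CDKN1B passed with slide as a block (-0.60), on its other probe (-0.56), as the mean of its probes (-0.54) and with the replicate block (-0.45), and did not with sex as a covariate (-0.57), no filter (-0.52) or animal number as a random block (-0.53). The dimmer probe lost its call with slide as a block, sex, no filter, either normexp, trended and robust eBayes and the animal number (adjusted p 0.0554 to 1), and within each slide. The replicate numbers only name the samples: same-numbered arrays had correlated deviations of -0.07 to 0.05, so the numbers do not pair them. With the replicate block, in which newborn 7 has no partner and adds nothing to the difference, 1326 probes and 3 list genes passed, against 1846 and 4 without newborn 7 and with no block, and the male minus female differences turned to 0.21 for PCNA, 1.42 for cyclin-B1 and -2.62 for CDKN1C. Without newborn 6 those of cyclin-B1 and CDKN1B turned to 0.47 and -0.14. None of these passed. Correlations that turned with normexp on the median background were all fetal: PCNA with cyclin-B1 (0.014), PCNA with CDKN1B (0.093) and the PCNA probes (-0.093). Without the 2 farthest arrays they were, among fetal arrays, PCNA with cyclin-B1 (0.67) and with CDKN1C (-0.41) and cyclin-B1 with CDKN1B (0.11), and among newborn arrays PCNA with CDKN1C (0.35) and the CDKN1B probes (-0.42), and the PCNA probes gave 0.92. Without newborn 6 the newborn correlations of PCNA with CDKN1B (0.20) and of CDKN1B with CDKN1C (-0.23) turned. The series matrix gave 1.04 for PCNA, 0.17 for cyclin-B1 and -1.11 for CDKN1C. The causes were not tested.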
